A study of Mus musculus with 4 samples.

Results

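The 10 genes described here are 5 imprinted genes that sit inside other genes and the 5 genes that hold them: *Mcts2* in *H13*, *Nap1l5* in *Herc3*, *Zrsr1* in *Commd1*, *Nnat* in *Blcap*, and *Peg13* in *Trappc9*. They were chosen by name, as pairs of an intronic gene and its host, and 9 of the 10 had a row among the 37310 genes of the count table. *Peg13*, a long noncoding RNA, had no row under its symbol in the GENCODE vM1 annotation, so only its host is described for that pair. RNA was sequenced from HATX mouse embryonic stem cells (mESCs), with 2 libraries of the wild-type (WT) line and 2 of *Spen* KO clone 2. Both lines have a mixed genomic background, carry an *Xist* transgene that doxycycline can induce, and grew on gelatin with serum and LIF; the labels give no treatment. The study calls the cells haploid, which the counts cannot show. *Spen* encodes an RNA-binding repressor that *Xist* needs to silence the X chromosome, and the KO line is described as lacking most or all of the gene. Each group is a single line, so any other difference between clone 2 and the WT line cannot be told apart from the loss of *Spen*. Nothing says that the 2 libraries of a group came from separate cultures, so p-values measure the spread between these libraries only.

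Imprinted genes are expressed mainly from the copy inherited from a single parent, usually through DNA methylation that the germline sets on only the maternal or the paternal copy. *Mcts2*, *Nap1l5* and *Zrsr1* are retrogenes, spliced RNAs copied back into the genome, and they landed in introns of genes that are expressed from both parental copies in most tissues. *Nnat* is also expressed from the paternal copy, but it has introns of its own and is not a retrocopy in this sense. The promoters of such intronic genes are known to be methylated on the maternal copy, and at *H13* the choice of the RNA's 3′ end is known to follow which parental copy is transcribed. A haploid cell, as the study calls these, would hold a single parental copy of each gene. The counts here separate neither parental copies nor 3′ ends. In RNA from whole cultures a level cannot tell the number of expressing cells from the RNA per cell.

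The promoters of the intronic genes are shown because they are the stretches where the imprint of such genes is usually read. RefSeq's table for GRCm38.p6 gave a promoter for 4 of the 5 intronic genes, as the 250 bases before and 50 after the start site, and each sequence matched mm9 exactly 1 time. CpG dinucleotides, the sites of DNA methylation, are in capitals, and each line runs 5′ to 3′ on the strand of the gene.
Mcts2: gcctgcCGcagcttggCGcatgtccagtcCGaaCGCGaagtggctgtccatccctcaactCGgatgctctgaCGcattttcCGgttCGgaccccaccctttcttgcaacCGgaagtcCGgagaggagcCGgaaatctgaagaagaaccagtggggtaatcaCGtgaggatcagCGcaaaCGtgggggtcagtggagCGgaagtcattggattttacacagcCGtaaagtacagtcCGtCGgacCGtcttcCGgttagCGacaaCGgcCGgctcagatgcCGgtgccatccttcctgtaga
Zrsr1: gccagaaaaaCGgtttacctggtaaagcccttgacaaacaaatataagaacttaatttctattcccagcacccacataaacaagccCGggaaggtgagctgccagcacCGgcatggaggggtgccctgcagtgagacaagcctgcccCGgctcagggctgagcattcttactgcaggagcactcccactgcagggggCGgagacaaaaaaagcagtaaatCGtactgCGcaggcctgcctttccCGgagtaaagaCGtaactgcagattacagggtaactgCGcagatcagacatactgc
Nnat: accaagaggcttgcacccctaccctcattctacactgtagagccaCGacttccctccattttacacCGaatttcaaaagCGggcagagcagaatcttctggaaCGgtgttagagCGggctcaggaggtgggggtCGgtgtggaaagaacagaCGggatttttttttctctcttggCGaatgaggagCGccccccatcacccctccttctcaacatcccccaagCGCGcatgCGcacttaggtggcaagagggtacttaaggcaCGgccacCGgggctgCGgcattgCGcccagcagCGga
Nap1l5: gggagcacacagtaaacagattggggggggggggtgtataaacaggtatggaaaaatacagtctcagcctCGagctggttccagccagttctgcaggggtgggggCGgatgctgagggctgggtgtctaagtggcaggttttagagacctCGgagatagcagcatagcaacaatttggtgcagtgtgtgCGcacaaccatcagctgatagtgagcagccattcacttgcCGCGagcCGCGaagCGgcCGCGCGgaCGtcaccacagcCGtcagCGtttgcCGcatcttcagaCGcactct
They hold 25 CpG (*Mcts2*, chr2:152512634-152512933, plus strand), 10 (*Zrsr1*, chr11:22871755-22872054, plus), 17 (*Nnat*, chr2:157385564-157385863, plus) and 17 (*Nap1l5*, chr6:58857071-58857370, minus). Across all 32851 promoters of the same length in the table the median was 7 CpG, and 18.4% held as many as *Mcts2*, 43.5% as many as *Zrsr1*, and 31.4% as many as *Nnat* or *Nap1l5*. Among the host windows of the table, that of *H13* holds 21 CpG, with its start site at the vM1 gene start, and the first for *Commd1* holds 18, with a start site 98 bases inside the gene. The others lie at internal start sites: *Blcap* (17 CpG, 4913 bases inside), *Herc3* (4 CpG, 2235 bases inside) and the second for *Commd1* (17 CpG, 9516 bases inside). The letters TGCCGC, the core bound by the imprint-protecting factor ZFP57 when methylated, were searched on both strands. They occur 2 times in the *Nap1l5* promoter, 1 time each in those of *Mcts2* and *Nnat*, and not in the *Zrsr1* window. Of the host windows, the first for *Commd1* holds 1 match and the others none. Of all promoters in the table, 11.6% hold at least 1 match and 1.53% hold 2 or more.

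*Mcts2* (ENSMUSG00000042814.6) is a single exon of 793 bases (chromosome 2, 152512884 to 152513676, mm9) on the same strand as *H13* (ENSMUSG00000019188.9, 152495197 to 152534406), in intron 4 of a transcript with 13 exons, and it shares no exonic base with its host. The other intronic genes lie on the strand opposite to their hosts. *Zrsr1* (ENSMUSG00000044068.4) is a single exon of 3284 bases (chromosome 11, 22873215 to 22876498) in intron 1 of *Commd1* (ENSMUSG00000051355.11, 22734744 to 22882382). It shares 203 bases with exons of *Commd1* transcripts, and the vM1 gene starts 1210 bases after the RefSeq start site, so its first part is not counted. *Nnat* (ENSMUSG00000067786.9, chromosome 2, 157385814 to 157388258) has 3 merged exons and lies in intron 2 of *Blcap* (ENSMUSG00000067787.4, 157382098 to 157397010). *Nap1l5* (ENSMUSG00000055430.3, chromosome 6, 58855228 to 58857120) is a single exon in intron 22 of *Herc3* (ENSMUSG00000029804.9, 58781459 to 58870392). *Trappc9* (ENSMUSG00000047921.8), the host of *Peg13*, spans 72420051 to 72891634 on chromosome 15. The hosts are annotated with short forms as well: 2 of 7 *H13* transcripts, 6 of 9 *Herc3* transcripts and 2 of 6 *Blcap* transcripts end before the intronic gene. No exonic base of the 4 intronic genes had a copy elsewhere in mm9 of at least 95% identity over 75 bases. *Mcts2* matched the transcript of its X-linked relative *Mcts1* at 83.8% identity over 671 bases, and *Zrsr1* matched X-linked *Zrsr2* at 77.4% over 1285 bases.

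**Figure D1:**
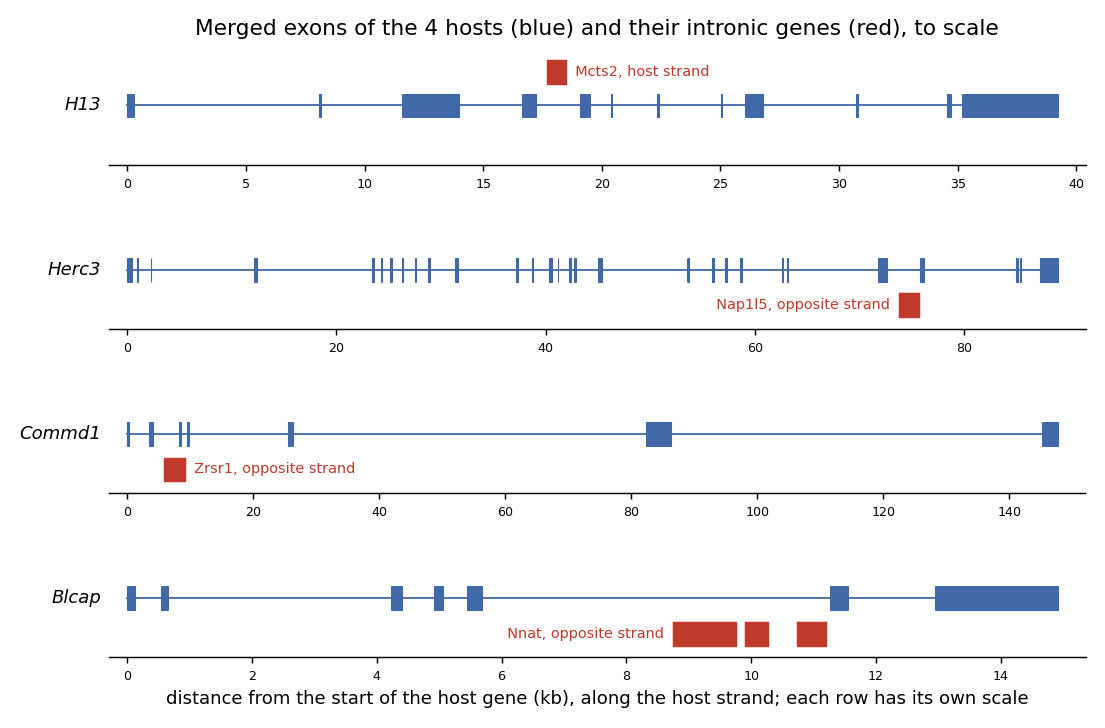
Merged exons of 4 hosts (blue) and their intronic genes (red), drawn to scale as distance in kb from the start of the host, with a scale of its own in each row. *Mcts2* alone is on the strand of its host, and *Zrsr1* lies within the first 10 kb of *Commd1*.

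The WT libraries held 36667685 and 43835004 counts, the libraries labelled *Spen* KO 54715889 and 61908422. They were compared with DESeq2 over all genes, with counts divided by library size factors (normalized counts). Calling a gene required a 2-fold difference and a Benjamini-Hochberg adjusted p under 0.001, the study's thresholds. Of the 17710 genes tested, 4.51% passed (1.36% higher under the KO label, 3.15% lower), and 32.3% had an adjusted p under 0.05 (16.4% higher, 15.8% lower). *Spen* itself was at 3716 and 3047 normalized counts in WT but at 7797 and 6242 in the libraries labelled KO. The study describes *Spen* RNA as higher once the protein is lost, so the gene-level count is no check of the deletion. Every direction below rests on the label, and these libraries are called KO-labelled. The 8 ES cell markers summed to between 221982 and 240985 normalized counts in every library, and 2 of them, *Dppa5a* and *Zfp42*, were higher, by 0.28 and 0.23 on the log2 scale. Sums of other markers were lower in both KO-labelled libraries for primitive endoderm (5 of 6 genes found; 229 and 273 in WT, 129 and 123 under the KO label) and trophoblast (5 of 5; 4644 and 4776, then 3886 and 4103). In these lists *Gata4*, *Cdx2* and *Eomes* were lower, at -1.13, -1.85 and -0.98. Most of the trophoblast sum was *Tfap2c* (3898 and 4067 in WT, 3534 and 3751 under the KO label). It was not distinguished between groups, at -0.13. The 6 fibroblast markers summed higher, at 172 and 192 in WT and 421 and 484 under the KO label, and *Thy1*, with a log2 fold change of 1.59, was the 1 of 4 tested that passed. *Thy1*, which other cells also express, carried most of that sum: the other 5 markers summed to 54.4 in each WT library and to 65.3 and 69.6 under the KO label, and 4 of the 5 had a negative log2 fold change. The collagen genes *Col1a1* and *Col1a2* had 20 to 61 and 6 to 12 raw counts per library and *Lum* at most 2, and the part of such cells in the results was not tested.

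Of the 4 intronic genes measured, *Mcts2*, *Zrsr1* and *Nnat* rose in the KO-labelled libraries, the first 2 past the study's thresholds. Among the hosts, *H13* was called lower, *Herc3* and *Blcap* fell by less than 2-fold, and *Commd1* and *Trappc9* were not distinguished between groups. The median log2 fold change was 1.00 over the 4 intronic genes and -0.30 over the 5 hosts, against 0.00 (0.00489) over all genes tested. The groups did not overlap for 8 of the 9 measured genes, 4 with both KO-labelled libraries above and 4 with both below. Of all genes tested 70.2% did not overlap either (35.4% above, 34.8% below), so absence of overlap sets no member apart. With members chosen by name and so few, these counts are a description beside the shares of all genes above.

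**Figure D2:**
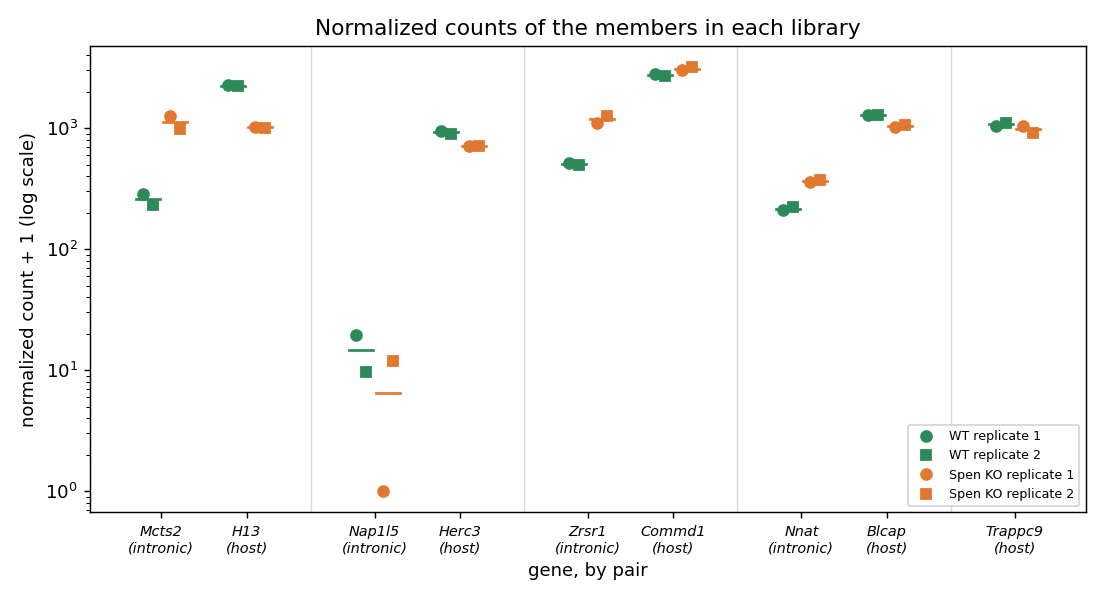
Normalized counts plus 1 (log scale) of the 9 measured genes in each library; points are libraries, horizontal lines are group means (n = 2). Both KO-labelled libraries lie above both WT libraries for *Mcts2*, *Zrsr1*, *Nnat* and *Commd1*, and below them for *H13*, *Herc3*, *Blcap* and *Trappc9*, while *Nap1l5* overlaps.

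The *Mcts2* and *H13* pair moved most, and its genes moved in opposite directions. *Mcts2* is a retrocopy of *Mcts1*, whose product acts in ribosome recycling and re-initiation of translation. It had 285 and 231 normalized counts in WT, against 1255 and 989 under the KO label. The groups did not overlap, and the lower KO-labelled library was well above the higher WT library. This is a log2 fold change of 2.12 ± 0.17 (SE), or 4.36-fold (DESeq2 adjusted p = 9.72e-33). *H13* encodes signal peptide peptidase, a protease in the membrane of the endoplasmic reticulum that cuts leftover signal peptides. It had 2270 and 2235 normalized counts in WT, against 1021 and 1006 under the KO label, with little spread within either group. It fell 2.22-fold, a log2 fold change of -1.15 ± 0.10 (SE) (DESeq2 adjusted p = 8.91e-28).

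Per kilobase of exon, *Mcts2* was at 143% and 118% of the level of *H13* in WT but at 1399% and 1120% under the KO label. Lengths merge the exons of all annotated transcripts, 7 for *H13* and 1 for *Mcts2*, so such levels depend on the annotation. In raw reads, *Mcts2* gave 12.6% and 10.3% as many counts as *H13* in WT, against 123% and 98.4% under the KO label. Because *Mcts2* lies on the strand of *H13*, reads of unspliced *H13* RNA can fall in it in libraries made without poly-A selection, and their share was not tested. If strand was not used in counting, which is not stated, the same holds for *Zrsr1*, *Nnat* and *Nap1l5* on the strand opposite to their hosts, and for their ratios. Spliced and unspliced *H13* reads were not separated. The only other gene annotated inside *H13* is the opposite-strand *Gm17559*, which holds 8.42% of the exonic bases of *H13* and had 14 to 45 counts per library, and it was not distinguished between groups (log2 fold change 0.57 ± 0.69 SE).

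Whether an intronic gene moved apart from its host was tested on the ratio of the 2 genes within each library. In this ratio library scaling and any shift shared by the chromosome cancel, except at low counts, where the 0.5 added to each normalized count weighs in. A limma model with a moderated variance was fitted across all 1537 pairs of nested genes in the annotation with enough counts, and 5.27% of them differed between groups at an adjusted p under 0.05 (3.19% with a higher and 2.08% with a lower ratio under the KO label). Pairs are not independent: 24 of the 81 that differed share the host *Fgfr2*, and when the model was fitted again without the 25 pairs of that host, 48 of the 1512 that remained differed (3.17%). The log2 ratio of *Mcts2* to *H13* was -2.99 and -3.27 in WT, against 0.30 and -0.02 under the KO label. The difference was 3.27 ± 0.19 (SE), a 9.63-fold higher ratio with a 95% interval of 7.08 to 13.1, and an adjusted p of 5.39e-05 in limma. Only 9 of the 1537 pairs had a larger absolute difference. Among the 617 pairs on the same strand, as this one is, 6.48% differed.

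*Zrsr1* rose, while *Commd1* was not distinguished between groups. *Zrsr1* is a retrocopy related to *Zrsr2*, a splicing factor that recognises 3′ splice sites, with a role in minor introns. Its normalized counts were 512 and 497 in WT, against 1108 and 1271 under the KO label, and the groups did not overlap. It rose 2.36-fold, by 1.24 ± 0.14 (SE) on the log2 scale (DESeq2 adjusted p = 1.50e-17). *Commd1*, a protein of copper handling and endosomal sorting, had 2787 and 2705 normalized counts in WT, against 3025 and 3196 under the KO label. Its log2 fold change was 0.18 with a 95% interval of 0.0093 to 0.35, and the DESeq2 adjusted p over all genes was 0.103, or 0.043 with upper-quartile size factors. The median gene of chromosome 11 had a log2 fold change of 0.16 (1143 genes), and with chromosome medians removed *Commd1* was at 0.02.

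The level of *Zrsr1* per kilobase was 46.9% of that of *Commd1* in each WT library, against 93.6% and 102% under the KO label. The log2 ratio was -2.44 in each WT library, against -1.45 and -1.33 under the KO label. The ratio was 2.08-fold higher (95% interval 1.61 to 2.68), a log2 difference of 1.06 ± 0.16 (SE) with a limma adjusted p of 0.00673, and this p was 0.0605 without KO-labelled replicate 2 and 0.194 with no variance trend in the model. *Commd1* counts carry more doubt than those of the other hosts. The span of *B3gnt2* in vM1 lies within that of *Commd1* on the same strand and shares 29.2% of its exonic bases, and how reads that fit both genes were counted is not stated. *B3gnt2* had 57 to 132 counts per library and was not distinguished between groups (log2 fold change 0.44 ± 0.36 SE). Inside *Commd1*, the opposite-strand transcripts *RP23-242C19.5* and *RP23-242C19.6* had 17 to 47 and 10 to 21 counts, with log2 fold changes of 0.52 and -0.21 that did not pass the test. The 203 bases that *Zrsr1* shares with *Commd1* are on opposite strands, and the strand setting of the counting is not stated either.

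*Nnat* and *Blcap* moved apart by smaller steps in opposite directions. *Nnat* (neuronatin) is a small membrane protein of the endoplasmic reticulum, known from developing brain and endocrine cells. It had 208 and 221 normalized counts in WT, against 358 and 369 under the KO label, with a log2 fold change of 0.76 ± 0.21 (SE), 1.69-fold, and a DESeq2 adjusted p of 0.00133. The KO-labelled libraries were both higher, but the change was below 2-fold. *Blcap*, a small conserved protein whose RNA is known for A-to-I editing, had 1283 and 1276 normalized counts in WT, against 1019 and 1056 under the KO label. It fell 1.23-fold, a log2 fold change of -0.30 ± 0.11 (SE) (DESeq2 adjusted p = 0.0275). With each library left out in turn the adjusted p of *Blcap* was between 0.169 and 0.271 and that of *Nnat* between 0.0383 and 0.0853, so *Blcap* lost the 0.05 threshold in all 4 fits and *Nnat* in 3 of them, those without WT replicate 1 and without either KO-labelled library. Upper-quartile size factors moved the adjusted p of *Blcap* to 0.0585.

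The 2 small changes add up in the ratio. The log2 ratio of *Nnat* to *Blcap* was -2.62 and -2.53 in WT, against -1.51 in each KO-labelled library. The difference was 1.06 ± 0.18 (SE), a ratio 2.09-fold higher with a 95% interval of 1.58 to 2.77, and an adjusted p of 0.012 in limma. Per kilobase, *Nnat* was at 27.0% and 28.8% of the level of *Blcap* in WT, against 58.4% and 58.2% under the KO label. Leaving out WT replicate 2 or KO-labelled replicate 2 moved the limma adjusted p to 0.0538 and 0.0632, and a model with no variance trend moved it to 0.193.

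Of the 5 neural markers found in the table, 3 had an adjusted p and 2 of these were called lower, none higher, against 3.15% of all genes tested called lower, and their summed level was 1163 and 1259 normalized counts in WT, against 393 and 448 under the KO label. *Pax6*, a neural transcription factor, had a log2 fold change of -2.33 and *Map2* of -1.29, so these genes moved opposite to *Nnat*, and *Neurog2* had at most 4 counts in any library.

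**Figure D3:**
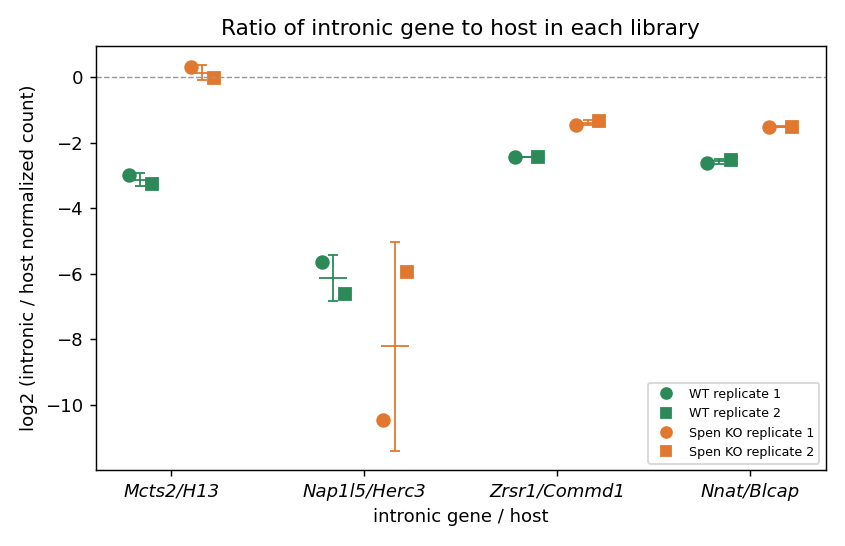
Log2 ratio of the normalized counts of intronic gene and host in each library; points are libraries, the horizontal marks and bars are group means ± SD (n = 2). The ratio was higher in both KO-labelled libraries for *Mcts2*/*H13*, *Zrsr1*/*Commd1* and *Nnat*/*Blcap*, while for *Nap1l5*/*Herc3* the point near -10.5 is a library with 0 *Nap1l5* counts.

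*Nap1l5* was near the limit of detection, and no change could be measured. It belongs to the nucleosome assembly protein family of histone chaperones and is known from brain. It had 14 and 8 raw counts in WT, against 0 and 14 under the KO label, so the groups overlapped. A count of 0 among 54715889 allows up to 3 independent counts by counting error alone. Counts were not independent, since 63.4% to 65.9% of gene counts from 1 to 19 were even in each library, against 49.5% to 51.5% of counts of at least 1000. If both mates of a read pair were counted, the limit is 6 counts. The log2 fold change was -1.30 with a 95% interval of -3.88 to 1.29 and a DESeq2 adjusted p of 0.515, so a fall of several fold and a 2-fold rise both lay within the interval at this depth. Leaving out 1 library gave -0.66 without WT replicate 1, -1.76 without WT replicate 2, -0.30 without KO-labelled replicate 1 and -6.40 without KO-labelled replicate 2, where the KO-labelled library that remains is at 0, none with an adjusted p. The log2 ratio of *Nap1l5* to *Herc3* differed by -2.09 ± 1.46 (SE), with a limma adjusted p of 0.499, and its direction turned to 0.16 without KO-labelled replicate 1. Because 1 library is at 0, this difference was set largely by the 0.5 added to the counts, and it was -1.62 with 1 added and -0.64 with 5 added. Its host *Herc3*, a ubiquitin ligase of the HECT class, had 944 and 902 normalized counts in WT, against 711 and 712 under the KO label, with no overlap. It fell 1.30-fold, a log2 fold change of -0.38 ± 0.13 (SE) (DESeq2 adjusted p = 0.0156). The threshold was lost in each of the 4 fits that leave out 1 library (adjusted p between 0.133 and 0.22).

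*Trappc9*, a subunit of the TRAPP complex that tethers vesicles in the Golgi, had 1051 and 1100 normalized counts in WT, against 1049 and 909 under the KO label. The highest KO-labelled value lay just under the lowest WT value. Its log2 fold change was -0.14 with a 95% interval of -0.39 to 0.11 and a DESeq2 adjusted p of 0.47, so a 2-fold change lies outside the interval. The opposite-strand gene *Gm3150*, also inside *Trappc9*, had at most 4 counts in any library.

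The order of the members by level per kilobase changed between groups. These levels divide by exons merged over all annotated transcripts, so a host with many forms may be understated beside a single-exon gene. In WT, *Blcap* was highest at 421 ± 1.65 normalized counts per kilobase (SD, n = 2), followed by *Commd1* at 327 ± 6.90 and *Mcts2* at 325 ± 48.3. The last 2 did not differ beyond their spread. *H13* was at 249 ± 2.75, *Trappc9* at 169 ± 5.38 and *Zrsr1* at 154 ± 3.27. *Herc3* was at 130 ± 4.22, *Nnat* at 117 ± 4.99 and *Nap1l5* at 7.20 ± 3.68. In the KO-labelled libraries *Mcts2* stood first at 1415 ± 237. *Commd1* at 371 ± 14.4 and *Zrsr1* at 362 ± 35.0 came next, followed by *Blcap* at 341 ± 8.57, and *Zrsr1* differed from neither of these neighbours beyond its spread. *Nnat* was at 199 ± 4.44, *Trappc9* at 154 ± 15.6, *H13* at 112 ± 1.24, *Herc3* at 100.5 ± 0.16 and *Nap1l5* at 2.89 ± 4.09.

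**Figure D4:**
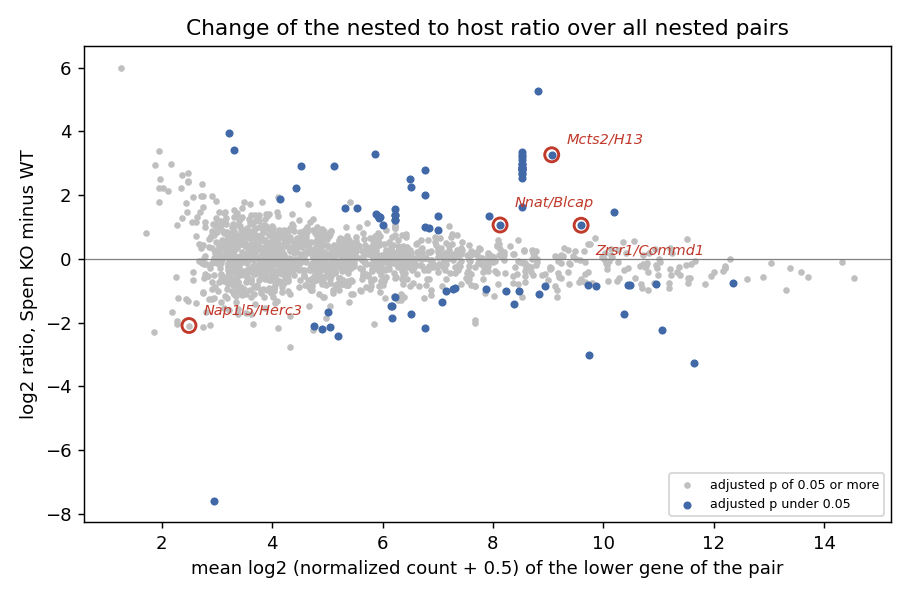
Change of the log2 ratio of nested gene to host between groups (KO-labelled minus WT) for 1537 nested pairs, against the mean log2 level of the lower gene of each pair; blue points have a limma adjusted p under 0.05 and red rings mark the 4 measured pairs. *Mcts2*/*H13* lies at 3.27 and *Zrsr1*/*Commd1* and *Nnat*/*Blcap* both at 1.06, while *Nap1l5*/*Herc3* lies among pairs of few counts.

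The flanking genes had smaller fold changes than the 3 intronic genes that rose, a difference that was not tested. Those 3 were taken by their direction, which leaves out *Nap1l5* at -1.30. The nearest protein-coding gene on each side with a mean of at least 50 normalized counts was taken for each host. Genes below that mean were skipped, so the distance from the host ran from 8137 bases (*Cct4*) to 555394 bases (*Col22a1*). At *H13*, *Zcchc3* and *Id1* had log2 fold changes of 0.16 and -0.27. At *Blcap*, *Src* and *Ctnnbl1* had values of -0.08 and 0.02. At *Commd1*, *Cct4*, a subunit of the chaperonin for actin and tubulin, rose by 0.30 (DESeq2 adjusted p = 3.1e-05), while *Tmem17* was at -0.22. At *Herc3*, *Abcg2*, an efflux transporter, rose by 0.37 (DESeq2 adjusted p = 0.000121) and *Tigd2* was at -0.33. At *Trappc9*, *Col22a1* and *Chrac1* were at -0.01 and 0.11. Of these 10 flanking genes, 2 had an adjusted p under 0.05 and 0 were called, where 32.3% and 4.51% of all genes tested passed, so these counts do not set the neighbours apart.

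**Figure D5:**
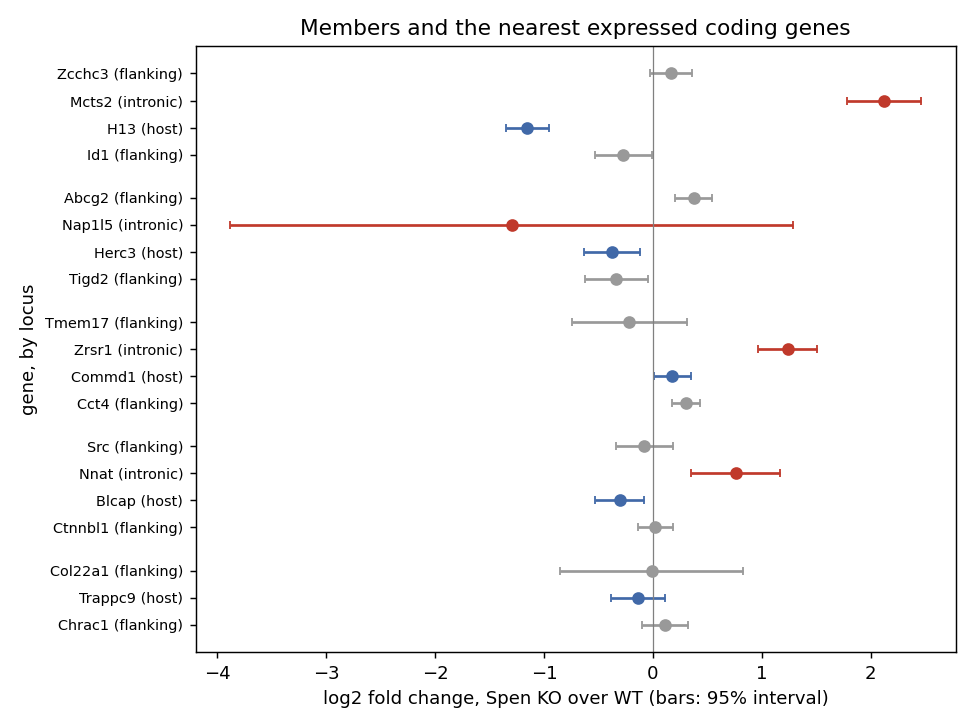
Log2 fold change (KO-labelled over WT, DESeq2) with 95% intervals for intronic genes (red), hosts (blue) and the nearest expressed coding gene on each side (grey), grouped by locus. *Mcts2* at 2.12, *Zrsr1* at 1.24 and *Nnat* at 0.76 lie to the right of every flanking gene, and *H13* at -1.15 lies to the left.

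Relatives and partners of the members were listed as well. The source genes and relatives of the retrogenes included no called gene: of 8 genes, 1 was higher and 1 lower at an adjusted p under 0.05, against 32.3% of all genes tested in either direction. *Zrsr2* rose by 0.27 on the log2 scale (DESeq2 adjusted p = 0.00557), against 1.24 for *Zrsr1*. *Mcts1* was at 0.19 ± 0.11 (SE), with an adjusted p of 0.183, against 2.12 for *Mcts2*. *Nap1l1*, an abundant histone chaperone, fell by 0.51 (DESeq2 adjusted p = 1.04e-13), on chromosome 10, whose median gene had a value of -0.35.

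Of the other TRAPP subunits 12 of 13 were found, and 5 were higher and 3 lower at an adjusted p under 0.05 (8 of 12, against 32.3% of all genes tested), with 0 called and a median log2 fold change of -0.06. *Trappc8* and *Trappc1* each rose by 0.46 on the log2 scale (0.456 and 0.455), and *Trappc12* and *Trappc6a* had values of -0.81 and -0.62. *Trappc12* lies on chromosome 12, with a median of -0.32. Of the 9 other COMMD genes, 2 were higher and 1 lower, with 0 called. *Commd4* and *Commd5* rose by 0.48 and 0.30, and *Commd3*, at -0.77, was lower. In the signal peptide peptidase family of *H13*, 3 of 4 relatives were tested and 1, *Sppl2b* on chromosome 10, was lower, at -0.46, against -1.15 for *H13*. The 4 relatives of *Herc3* had values from -0.48 to 0.13, and by DESeq2 0 had an adjusted p under 0.05 and 0 an unadjusted p under 0.05.

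Factors that keep germline imprints were expressed in every library. Of 10 listed, 8 rose and 1 fell under the KO label at an adjusted p under 0.05, where 16.4% of all genes tested were higher and 15.8% lower, with 0 called and a median log2 fold change of 0.22. *Setdb1*, which methylates histone H3 at lysine 9, and *Dnmt1*, the maintenance DNA methyltransferase, rose by 0.53 and 0.33. *Dppa3*, a protein that protects maternal marks in the zygote, was lower at -0.55. *Zfp57*, chosen after its values were seen because it binds the motif searched in the promoters, rose from 10092 to 11672 normalized counts on average, a log2 fold change of 0.21 (DESeq2 adjusted p = 0.0106).

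Among 13306 genes with a mean of at least 50 normalized counts, the genes whose centred log2 values lay nearest to those of an intronic gene over the 4 libraries were listed. They were *Gm11607* and *Siglec5* for *Mcts2*, at Euclidean distances of 0.192 and 0.202 and with log2 fold changes of 2.03 and 2.02. For *Zrsr1* they were *Kdsr* and *Ddx18* (0.0416 and 0.0619), with log2 fold changes of 1.21 and 1.29, both on chromosome 1. For *Nnat* they were *Cobl* and *Hap1* (0.0221 and 0.0268), with log2 fold changes of 0.76 and 0.78, both on chromosome 11. The points share 4 libraries in 2 groups, so genes with group differences of like size lie near each other.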

How the data were processed

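Members, pairs and gene lists were chosen with earlier results of these data known. The authors deposited raw counts for each gene: by the study's methods, they mapped paired 75-base reads from stranded, ribosomal RNA-depleted libraries to mm9 with STAR and assigned them to GENCODE vM1 genes with featureCounts. The submitters' processing notes also name bcl2fastq and DESeq2, and the design text and the methods name different sequencers. Versions and strand setting are not given in the sources used here. Every identifier matched the vM1 annotation, and 0 count columns lacked a sample. Depth was 36667685 to 61908422 counts per library. Groups followed the genotype labels. With 2 libraries per group an exact permutation test cannot go below p = 0.333, so p-values come from models fitted across all genes or pairs, with Benjamini-Hochberg adjustment. Low counts were more often even than odd, so the mates of a pair may have been counted separately, and depth in fragments may be lower. Replicates differed beyond sampling noise (chi-square per degree of freedom 29.1 in WT and 11.7 in the libraries labelled *Spen* KO).

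From the counts, genes were tested with DESeq2 1.42.0 in R 4.3.3 (group alone), with edgeR 4.0.16 as an alternative. Nested pairs were tested with limma 3.58.1 on log2 ratios of normalized counts plus 0.5, for pairs whose genes each reached 10 counts in 2 or more libraries, with a variance trend on the lower level. Levels per kilobase used merged exons. Copies were searched with BLAST 2.17.0. Tested on simulated counts, DESeq2 called 86.6% of genes changed by 1.5 on the log2 scale and 89.3% of those changed by 2, among 19759 genes, with 2 of 19559 unchanged genes called. The ratio test called 51% of pairs changed by 1 and 82.4% of those changed by 2, and 3 of 1415 unchanged pairs, among 1517. Named genes were all members, *Spen*, the nearest coding gene on each side of a host, genes inside hosts, and up to 2 genes per direction of each list with an adjusted p under 0.05 and a mean of at least 50. Outside this rule, *Cdx2*, *Tfap2c*, *Mcts1*, *Zfp57*, *Col1a1*, *Col1a2*, *Lum* and *Neurog2* were named as well. For each intronic gene, the 2 genes nearest in pattern were also named. Alternatives were other size factors, values added to counts (1 and 5 for ratios), filters, tests and thresholds, a replicate block, removal of chromosome medians and leaving out each library, where the lone library is assumed to vary like the others.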

Additional observations from a re-analysis of the deposited data

How the results depend on the processing

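*Mcts2*, *Zrsr1*, *H13* and the *Mcts2*/*H13* ratio kept their direction and stayed past the 0.05 threshold under all alternatives run for them. The adjusted p over these alternatives ran up to 3.05e-07, 1.99e-06, 2.04e-07 and 0.026. The labels do not say whether replicate numbers mark a shared batch, and same-numbered libraries did not deviate together (correlation -0.018). With the replicate block, *Herc3* was at -0.37 and *Blcap* at -0.30, both past no threshold (adjusted p = 0.0971 and 0.138), 192 genes were called higher and 457 lower, and 71 nested pairs had a higher and 117 a lower ratio. The block moved no other member or member ratio across the threshold, and *Nap1l5*, at -2.41 with the block, had no adjusted p under it or with a library left out. Upper-quartile size factors moved *Blcap* to -0.27 (adjusted p = 0.0585) and *Commd1* to 0.22 (adjusted p = 0.043). Without the variance trend the ratios of *Zrsr1*/*Commd1* (1.06, adjusted p = 0.194) and *Nnat*/*Blcap* (1.06, adjusted p = 0.193) lost the threshold, with 25 nested pairs higher and 3 lower, against 49 and 32. A minimum of 1 count gave 31 and 9, pairs without exon overlap gave 19 lower, and leaving out the host *Fgfr2*, an alternative added after seeing the data, gave 21 higher. An adjusted p of 0.05 gave 371 higher and 852 lower genes at 2-fold and 2909 and 2805 with no fold minimum. The cause of these moves was not tested, except that looser thresholds and fewer pairs change the counts by construction. Leaving out each library in turn gave log2 fold changes of 0.72 to 0.81 for *Nnat*, -0.40 to -0.34 for *Herc3* and -0.33 to -0.27 for *Blcap*, ratio differences of 1.00 (0.996) to 1.11 for *Zrsr1*/*Commd1*, 1.02 to 1.11 for *Nnat*/*Blcap* and -2.59 to 0.16 for *Nap1l5*/*Herc3*, 137 to 185 genes called higher and 332 to 404 lower, and 28 to 47 nested pairs higher and 14 to 44 lower. The *Zrsr1*/*Commd1* ratio lost the threshold without KO-labelled replicate 2 (adjusted p = 0.0605). The *Nap1l5*/*Herc3* ratio had too few counts for a value at a minimum of 50 counts and without WT replicate 1 or KO-labelled replicate 2, and *Zrsr1*/*Commd1* has none among pairs without exon overlap. Depth limits *Nap1l5*, at 14 counts or fewer in each library.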
